A study of Rattus norvegicus with 9 samples.

Results

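The genes of synaptic vesicles, of the SNARE fusion machinery and of the Rab GTPases were followed in sympathetic neurons exposed to BMP-7. Members were all genes whose single symbol in the array annotation starts with Syt, Stx, Vamp, Snap, Sv2, Rab, Rims, Unc13, Cplx, Syngr or Nsf, or is Syn1, Syn2, Syn3 or Syp. This gave 84 genes measured by 118 probe sets, of 4736 genes named by 7006 single-gene probe sets on the array, and 2 probe sets that name both Rab1a and Rab1b were left out by this rule. Each gene was read at its brightest probe set, the one with the highest mean over the 9 arrays. Superior cervical ganglia of Holtzman rat embryos (day 21) supplied the neurons. All cultures had nerve growth factor (100 ng/ml), after treatment with an antimitotic agent that removes dividing non-neuronal cells. BMP24h cultures received BMP-7 at 50 ng/ml from day 5 in culture for 24 hr, BMP6h cultures received the same dose for 6 hr, and control cultures were kept in medium alone for 24 hr, with 3 samples of each condition. Each sample pooled RNA from several cultures of 1 dissection, and by the Methods each dissection gave a sample of every condition. Expression was read on Affymetrix rat arrays as log2 values, so that a difference of 1 is a doubling and no probe set's level can be set against another's.

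A neuron stores transmitter in vesicles that carry a vesicle SNARE (Vamp) and a calcium sensor (Syt), and these fuse with the cell membrane when Vamp, syntaxin (Stx) and SNAP-25 zip together. Rab GTPases mark the identity of vesicles and other compartments and recruit the proteins that move and tether them, priming proteins of the Unc13 and Rims families make docked vesicles ready for release, and the ATPase Nsf takes the spent SNARE complex apart. Sympathetic neurons release noradrenaline from small and large dense-core vesicles, and BMP-7 makes them grow dendrites in culture.

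Promoters are shown for Syn2, Sv2b and Syt4, the genes with the clearest differences below, and for Syn1, the relative of Syn2 whose difference met no threshold. Each runs from 250 bases before to 50 bases after the annotated start in RefSeq on GRCr8, 5′ to 3′ on the strand of the gene, and 70 of the 84 genes had such an entry. Capitals mark matches on either strand to GGGCGG (the GC box), to TGACGTCA (the cyclic AMP response element) or to GGCGCC and GGAGCC (GC-rich elements bound by Smad proteins, the transcription factors of BMP signaling).
Syn2, chr4:149858669-149858968, plus strand: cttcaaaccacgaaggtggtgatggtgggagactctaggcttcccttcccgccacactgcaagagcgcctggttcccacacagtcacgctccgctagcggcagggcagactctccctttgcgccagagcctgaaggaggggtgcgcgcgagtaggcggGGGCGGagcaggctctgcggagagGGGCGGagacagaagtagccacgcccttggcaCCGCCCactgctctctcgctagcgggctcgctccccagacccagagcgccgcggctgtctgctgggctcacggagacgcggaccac
Syn1, chrX:3725495-3725794, plus strand: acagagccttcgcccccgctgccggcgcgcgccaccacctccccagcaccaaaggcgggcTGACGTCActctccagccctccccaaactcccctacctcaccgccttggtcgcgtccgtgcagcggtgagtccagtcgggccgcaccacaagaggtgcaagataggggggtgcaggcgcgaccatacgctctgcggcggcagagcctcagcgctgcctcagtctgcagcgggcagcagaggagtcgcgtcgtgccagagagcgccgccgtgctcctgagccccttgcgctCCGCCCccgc
Sv2b, chr1:138562209-138562508, minus strand: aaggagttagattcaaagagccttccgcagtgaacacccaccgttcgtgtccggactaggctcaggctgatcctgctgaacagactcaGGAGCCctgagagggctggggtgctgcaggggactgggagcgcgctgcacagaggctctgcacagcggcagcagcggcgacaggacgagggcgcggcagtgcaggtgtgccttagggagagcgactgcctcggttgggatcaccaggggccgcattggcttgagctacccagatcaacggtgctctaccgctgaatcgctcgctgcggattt
Syt4, chr18:23320814-23321113, minus strand: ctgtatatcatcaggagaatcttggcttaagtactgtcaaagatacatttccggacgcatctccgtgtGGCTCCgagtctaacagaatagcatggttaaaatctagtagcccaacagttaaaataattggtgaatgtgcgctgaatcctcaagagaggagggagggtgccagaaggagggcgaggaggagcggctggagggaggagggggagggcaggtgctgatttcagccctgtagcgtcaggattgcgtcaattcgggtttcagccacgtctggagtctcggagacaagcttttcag
The Syn2 window held 3 GC boxes, the Syn1 window 1 cyclic AMP response element and 1 GC box, and the Sv2b and Syt4 windows 1 GGAGCC each. Over the 70 genes, a GC box stood in 55 windows (78.6%, against 34.9% of 27457 rat promoters), GGAGCC in 33 (47.1%, against 29%), GGCGCC in 21 (30%, against 11.8%) and TGACGTCA in 2, Syn1 and Vamp1 (2.86%, against 1.91%). A GC box and a GGCGCC can share bases at their ends, all 3 of the shorter motifs are rich in G and C, and a match describes only the letters of this window. The 27457 promoters are those of all genes with an entry, not only of genes on the array, so the shares compare unmatched sets.

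Batch 1 held replicate 1 of every condition (10 µg of cRNA hybridized) and batch 2 the other replicates (5 µg), and the batch difference had been taken out of the deposited values. BMP6h replicate 2 stood apart, with 9.99% of all probe sets over 1 log2 unit away from the mean of its 2 companion arrays. That share was 4.21% for BMP6h replicate 3, 3.84% for control replicate 3 and at most 1.09% for the rest. The 14 sympathetic neuron markers measured, among them Th and Dbh of noradrenaline synthesis, averaged 10.96 to 11.15 on BMP24h arrays and 11.05 to 11.10 on control arrays, and by the thresholds used below Ddc was lower at 24 hr (log2 fold change -0.45) and Elavl4 higher (0.35). The 13 fibroblast and matrix markers averaged 9.53 to 9.69 on BMP24h arrays and 9.74 to 10.02 on control arrays, and 4 of them (Dcn, Lum, Vim and Mgp) were lower at 24 hr by those thresholds. The 4 endothelial markers averaged 5.91 to 6.17 on BMP24h arrays and 6.20 to 6.90 on control arrays, with Kdr lower by the same thresholds (-1.39), the 11 glial markers 7.16 to 7.36 on BMP24h arrays and 7.19 to 7.29 on control arrays, and the 6 macrophage and blood markers 7.55 to 7.78 on BMP24h arrays and 7.60 to 7.73 on control arrays. The part of these other cells in the values below was not tested, and in RNA of whole cultures fewer cells of a type and less RNA per cell cannot be told apart.

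At 24 hr against control, none of the 84 genes passed limma at an adjusted p under 0.05, where 0.211% of all genes did, and the lowest adjusted p among them was 0.323. Of these genes, 3 had an unadjusted p under 0.05, and all 3 also met the looser thresholds of the Methods, which ask also for a 1.2-fold or larger difference. Syn2 was higher (1 of 84 genes, against a background of 1.77% of all genes), and Sv2b and Syt4 were lower (2 of 84 genes, against 2.05%). When arrays were weighted by their spread, with weights estimated gene by gene after seeing the data, Syn2, Sv2b and Syt4 passed the adjusted test, a share (3.57%) close to that of all genes in the same fit (3.63%). By the thresholds of the Methods that fit called 12 of the 84 genes (14.3%, against 9.44% of all genes). Differences were small over the 84 genes: 44 of the 84 had higher values and 40 lower values, the median log2 fold change was 0.00, and 71 (84.5%) lay within 0.25 of 0, against 81.3% of all genes. The median size of the change was 0.07 for these genes and 0.11 for all genes. The 95% intervals bounded the change to less than 1.5-fold for 51 of the 84 genes (60.7%, against 56.1% of all genes) and to less than 2-fold for 73 (86.9%, against 88.3%). The 3 BMP24h arrays lay wholly above or below the 3 control arrays for 10 genes (11.9%, against 13.6% of all genes), 4 higher and 6 lower.

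At 6 hr against control, no member passed the adjusted limma test (background 0.0422%), none met the thresholds of the Methods (background 1.79%) and none had an unadjusted p under 0.05. The lowest adjusted p was 0.887, the median log2 fold change 0.02, with 47 genes at higher and 37 at lower values. The arrays of both conditions did not overlap for 8 genes (9.52%, against 10.5%). Between BMP24h and BMP6h, the arrays did not overlap for 8 genes (9.52%, against 10.4%), and none passed the adjusted test (background 0%), where 2 had an unadjusted p under 0.05. By the thresholds of the Methods Syn2 was higher at 24 hr than at 6 hr (1 gene, background 1.58%) and Syt4 lower (1 gene, background 1.63%). No gene of the 84 passed the adjusted F-test across the 3 conditions, where 0.148% of all genes did, and Syn2 was the 1 gene at the F-test threshold of the Methods, a p under 0.005, which 44 of all 4736 genes met (0.929%). In the ordinary two-way analysis of the Methods, without moderated variances, neither a member nor any other of the 4736 genes passed the adjusted test in any of these comparisons.

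**Figure D1:**
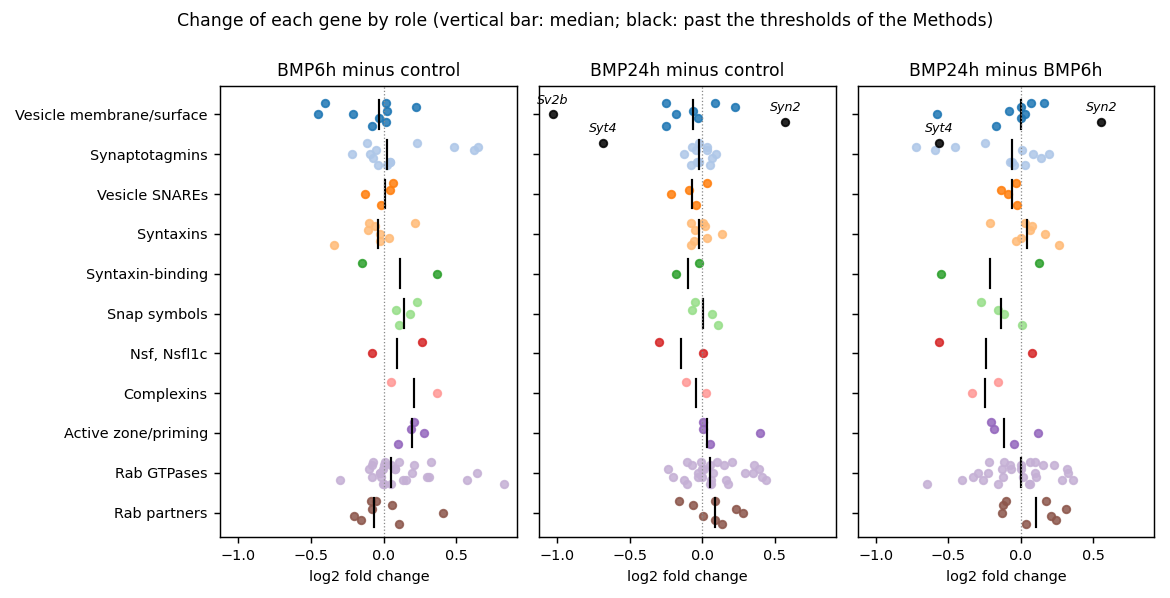
Log2 fold change (x axis) of each of the 84 genes by role (y axis) in 3 panels, each BMP-7 time against control and then BMP24h against BMP6h. Points are genes, vertical bars are medians of a role, and black marks genes past the thresholds of the Methods. Most points lie within 0.25 of 0, and Syn2, Sv2b and Syt4 are the 3 black points at 24 hr against control.

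The synapsins are phosphoproteins that coat vesicles and tie the reserve pool to actin, and only Syn2 among them differed by the thresholds of the Methods. Syn2 had log2 values of 10.73, 10.59 and 10.93 in BMP24h samples, against 10.21, 10.13 and 10.19 in control samples. All 3 BMP24h arrays lay above every control array, and the gap between the nearest pair was wider than the spread within control. At 6 hr it stood at 10.18, 10.12 and 10.29, within or just beside the control values. At 24 hr this was a log2 fold change of 0.57 (1.49-fold, standard error 0.13, 95% interval 0.27 to 0.87, adjusted p = 0.323, higher in 3 of 3 samples), and at 6 hr of 0.02 (interval -0.28 to 0.32). Between BMP24h and BMP6h it was 0.55 (standard error 0.13, interval 0.25 to 0.86, adjusted p = 0.715). Both other Syn2 probe sets gave like values at 24 hr against control, 0.58 and 0.66, with BMP24h arrays above all control arrays. They gave 0.13 and 0.30 at 6 hr, where BMP6h replicate 2 alone read 9.65 and 9.19, above the other BMP6h arrays, so that 24 hr against 6 hr came to 0.44 and 0.35. The probe set at 0.35 missed the thresholds of the Methods in that comparison, and these other 2 probe sets were designed on 1 shared sequence.

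Syn1 and Syn3 were measured beside Syn2. Syn1 had 9.02, 9.06 and 9.22 in BMP24h samples, against 9.16, 9.16 and 9.17 in control samples, which overlap. Its log2 fold change was -0.06 (interval -0.37 to 0.25), so the interval reaches neither 1.5-fold lower nor 1.5-fold higher. Syn3 had 7.07, 7.30 and 6.86 in BMP24h samples, against 7.02, 7.26 and 6.27 in control samples, and its difference of 0.22 had an interval from -0.39 to 0.84. Control replicate 3 was the low array there.

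The SV2 proteins are transporter-like glycoproteins of the vesicle membrane, and Sv2b had the most negative fold change of all 84 genes at 24 hr. Sv2b had 7.60, 7.70 and 7.85 in BMP24h samples, against 8.67, 8.65 and 8.93 in control samples. All 3 BMP24h arrays lay below every control array. At 6 hr the arrays split, with 8.49 and 8.76 on replicates 1 and 3 near the control values and 7.63 on replicate 2 among the BMP24h values. The log2 fold change at 24 hr was -1.03, or 0.489 of the control level (standard error 0.28, interval -1.68 to -0.39, adjusted p = 0.566, lower in 3 of 3 samples). At 6 hr it was -0.45 (interval -1.10 to 0.19), and -0.09 without BMP6h replicate 2. BMP24h against BMP6h gave -0.58, which missed the thresholds of the Methods in the main fit and met them in 4 of 19 alternative fits. Those were the replicate numbers as blocks, the fit without BMP6h replicate 2 (-0.94) and both fits with array weights. The other Sv2b probe set read 5.40, 5.52 and 5.98 in BMP24h samples, against 6.69, 6.42 and 7.45 in control samples, a difference of -1.22. Without BMP6h replicate 2, whose spread enters the error of every comparison, the Sv2b change at 24 hr stayed at -1.03 and passed the adjusted limma test (adjusted p = 0.0216), as did 0.253% of all genes.

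Sv2a, the SV2 protein bound by the antiepileptic drug levetiracetam, had 8.26, 8.28 and 8.30 in BMP24h samples, against 8.38, 8.45 and 8.75 in control samples. Those arrays did not overlap, but the log2 fold change of -0.25 had an interval from -0.71 to 0.21. At 6 hr Sv2a was at 8.29, 7.71 and 8.37, all below the control arrays, with a log2 fold change of -0.41 (interval -0.86 to 0.05), and in the fit that takes the replicate numbers as blocks it met the thresholds of the Methods there. Sv2c differed by -0.25 at 24 hr (interval -0.72 to 0.22), with overlapping arrays. A test of Sv2b against Sv2a or Sv2c was not run.

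**Figure D2:**
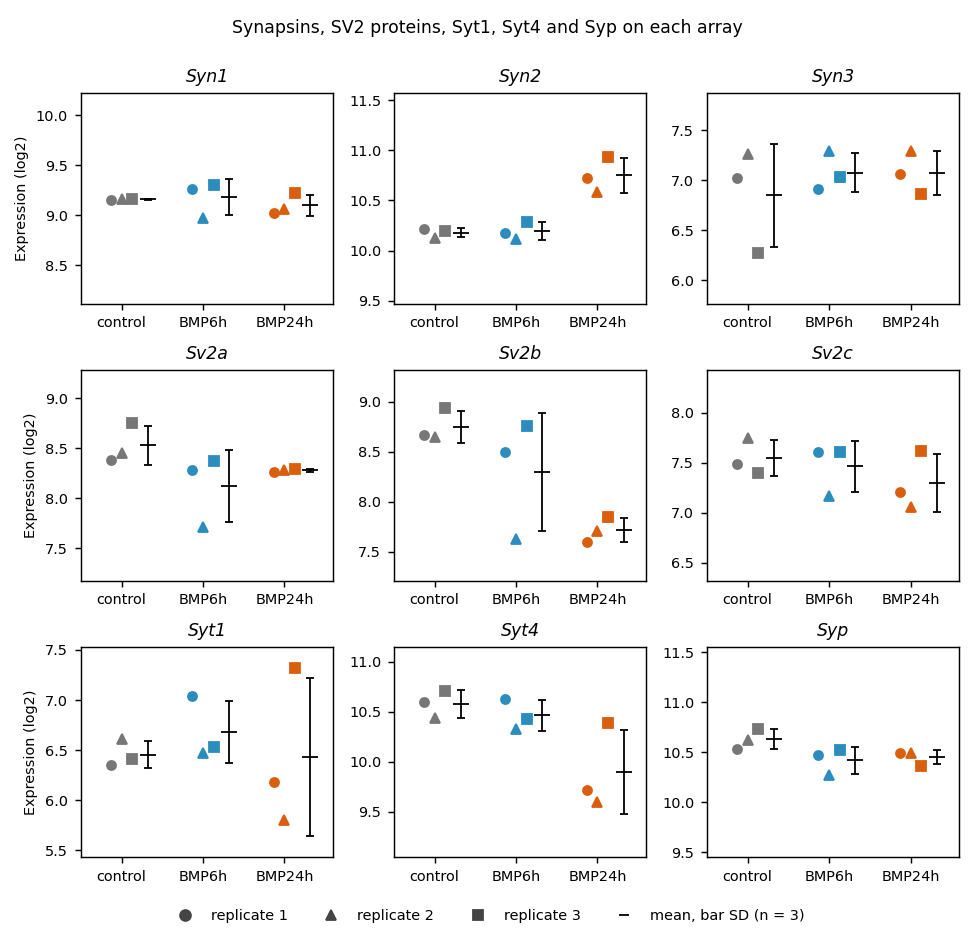
Log2 expression (y axis, each panel spanning the same range) of the synapsins, the SV2 genes, Syt1, Syt4 and Syp on each of the 9 arrays by condition (x axis), with the mean and SD (n = 3). Syn2 at 24 hr lies above every control array and Sv2b below, and for Sv2b, BMP6h replicate 2 (triangle) lies with the 24 hr arrays at 7.63.

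Synaptotagmins, a family that includes calcium sensors of exocytosis, were measured for 13 genes. Of these, 5 had higher and 8 lower values at 24 hr, with a median of -0.02. Syt4, a synaptotagmin of dense-core vesicles whose first C2 domain does not bind calcium, had 9.72, 9.60 and 10.38 in BMP24h samples, against 10.59, 10.43 and 10.71 in control samples. The arrays did not overlap, although BMP24h replicate 3 came close to control replicate 2. The log2 fold change was -0.68, or 0.623 of the control level (standard error 0.22, interval -1.19 to -0.17, adjusted p = 0.868, lower in 3 of 3 samples). At 6 hr Syt4 stood at 10.63, 10.33 and 10.43 (log2 fold change -0.12, interval -0.63 to 0.39), and BMP24h against BMP6h gave -0.56 (interval -1.08 to -0.05, adjusted p = 0.939), which met the thresholds of the Methods in 12 of 19 alternative fits. The other Syt4 probe set, designed on the same transcript sequence, gave -0.76 at 24 hr against control. The Syt4 difference from control missed the thresholds of the Methods without BMP24h replicate 1 (-0.54), without BMP24h replicate 2 (-0.52), without control replicate 3 (-0.61) and in batch 2 alone (-0.58).

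Syt1, the calcium sensor of fast transmitter release, had 6.18, 5.80 and 7.31 in BMP24h samples, against 6.35, 6.61 and 6.41 in control samples. Replicates 1 and 2 at 24 hr lay below control and replicate 3 far above it, so the log2 fold change of -0.02 had an interval from -0.88 to 0.84. In Syt9 too, BMP24h replicate 3 lay above replicates 1 and 2 (5.78, 5.68 and 6.85), but the latter lay within the control range. Control arrays of Syt9 read 6.47, 6.59 and 5.47, and its BMP6h arrays, 6.86, 6.83 and 6.78, lay above all of them at a log2 fold change of 0.65 (interval -0.25 to 1.54). Syt5, Syt11 and Syt17 had log2 fold changes at 24 hr of 0.10, -0.08 and -0.02. The Syt17 interval, -0.28 to 0.23, was among the narrow ones, and those of Syt2 (-1.15 to 1.22) and Syt12 (-1.23 to 1.30) were too wide to bound a doubling.

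The remaining vesicle membrane genes differed little. Syp, synaptophysin, the abundant membrane protein that binds Vamp2, had 10.50, 10.49 and 10.37 in BMP24h samples, against 10.53, 10.63 and 10.73 in control samples. BMP24h arrays lay below control arrays by a narrow margin, at a log2 fold change of -0.18 (interval -0.47 to 0.11), and at 6 hr it was -0.21 (interval -0.50 to 0.08). Syngr1 and Syngr2, the synaptogyrins, had -0.03 and 0.09 at 24 hr.

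The 3 neuronal core SNAREs had no difference that met a threshold. Snap25, which contributes a pair of helices to the fusion complex, had 10.45, 10.32 and 10.86 in BMP24h samples, against 10.49, 10.39 and 10.56 in control samples. Its log2 fold change was 0.06 (interval -0.31 to 0.44) at 24 hr and 0.18 (interval -0.19 to 0.55) at 6 hr, and its 4 probe sets ran from -0.03 to 0.06 at 24 hr and from 0.18 to 0.41 at 6 hr. Stx1a, the syntaxin of the presynaptic membrane, had 10.39, 10.36 and 10.63 in BMP24h samples, against 10.44, 10.00 and 10.53 in control samples, a difference of 0.14 (interval -0.26 to 0.53). Vamp2, the vesicle SNARE of fast release, had 10.57, 10.71 and 10.39 in BMP24h samples, against 10.70, 10.67 and 10.96 in control samples, a difference of -0.22 (interval -0.54 to 0.11). In all 3 genes the arrays of both conditions overlapped, and the intervals stayed within 1.5-fold in both directions.

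The 8 syntaxins ran from -0.08 (Stx12, an endosomal syntaxin) to 0.14 (Stx1a) at 24 hr and from -0.34 (Stx3) to 0.21 (Stx8, also endosomal) at 6 hr. Vamp1, Vamp3 (cellubrevin, which serves recycling endosomes) and Vamp5 differed by 0.03, -0.04 and -0.09 at 24 hr. Stxbp5, tomosyn, which binds syntaxin and holds back SNARE assembly, had 6.51, 6.55 and 6.46 in BMP24h samples, against 6.83, 6.65 and 6.57 in control samples, and 6.91, 7.64 and 6.61 in BMP6h samples. BMP24h lay below both other conditions on every array, yet the differences of -0.18 from control (interval -0.76 to 0.40) and -0.55 from BMP6h (interval -1.13 to 0.03) missed the thresholds. The difference from BMP6h met those of the Methods with no batch term, with the replicate numbers as blocks and without BMP6h replicate 3. In both fits with array weights, that difference and the one from control met them. BMP6h replicate 2, at 7.64, was the highest of the 9 arrays. Nsf had 5.98, 5.20 and 6.67 in BMP24h samples, against 6.23, 6.23 and 6.27 in control samples, with a log2 fold change of -0.29 (interval -1.06 to 0.47). The control arrays of Nsf agreed closely and the BMP24h arrays fell on both sides of them. Nsfl1c, a cofactor of the related ATPase p97, had 0.00 (interval -0.29 to 0.29).

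BMP24h replicate 3 read above replicates 1 and 2 for Syt1, Syt9, Nsf, Syt4 and Rab1a, a Rab of traffic between endoplasmic reticulum and Golgi (6.87, 6.11 and 7.76 in BMP24h samples). Without it, Nsf (-0.69) and Syt1 (-0.50) met the thresholds of the Methods at 24 hr against control, and the count of members was 5 in place of 3 (5.95%, against 3.61% of all genes in that fit). BMP24h replicate 3 was over 1 log2 unit from the mean of its companion arrays for 4 of the 84 genes (Nsf, Rab1a, Syt1 and Syt9) and for 1.09% of all probe sets.

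Complexins, which clamp and then assist the SNARE complex, had log2 fold changes at 24 hr of -0.11 (Cplx1) and 0.03 (Cplx2). Among the priming and active zone genes, Unc13a, the main priming factor of neurons, had 7.97, 7.86 and 7.68 in BMP24h samples, against 6.85, 7.72 and 7.75 in control samples. Replicates 2 and 3 of both conditions lay together and control replicate 1 was low, so that the difference of 0.40 (interval -0.29 to 1.08) was 1.12 in batch 1. At 6 hr Unc13a differed by 1.32 in batch 1 and by -0.24 in batch 2. Rims1, the active zone scaffold that binds Rab3, had 0.00 at 24 hr (interval -0.28 to 0.29), and 4.83, 4.99 and 4.89 at 6 hr, above control arrays of 4.77, 4.52 and 4.79 (0.21, interval -0.08 to 0.49).

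Rab GTPases made up 28 of the 84 genes. At 24 hr 17 had higher and 11 lower values, the median was 0.06 on the log2 scale and the range ran from -0.23 (Rab12) to 0.44 (Rab3c), and none met the thresholds of the Methods. Among the Rab3 proteins, the Rabs of secretory vesicles, Rab3a had 9.72, 9.68 and 9.59 in BMP24h samples, against 9.76, 9.72 and 9.83 in control samples. The BMP24h arrays lay just below control, at -0.11 (interval -0.36 to 0.14). Rab3c had 7.53, 7.42 and 7.71 in BMP24h samples, against 7.26, 7.35 and 6.74 in control samples, also without overlap, and its difference of 0.44 had an interval that ran from just below 0 up to 0.88. That difference met the thresholds of the Methods in 5 of 19 alternative fits, among them the fit without control replicate 2 (0.57). The other Rab3c probe set gave -0.03 at 24 hr, with 6.98, 6.99 and 7.13 in BMP24h samples, against 7.06, 7.06 and 7.09 in control samples. Rab3b and Rab3d had 0.00 and 0.05, with intervals from -0.40 to 0.40 and from -0.21 to 0.32.

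Some Rabs of the endosome and Golgi, given here as examples, were close to control at 24 hr. Log2 fold changes were -0.03 for Rab5a of early endosomes, -0.13 for Rab7a of late endosomes, 0.07 and 0.06 for Rab11a and Rab11b of recycling endosomes, and 0.01 for Rab6a of the Golgi. The intervals of these examples were each within 0.46 of 0. Rab34 and Rab4a stood further off, at 0.20 (interval -0.25 to 0.65) and -0.20 (interval -0.54 to 0.15). Rab28 had 7.27, 7.41 and 7.45 in BMP24h samples, against 7.14, 7.18 and 6.64 in control samples, and Rab15 and Rab2a had 0.41 and 0.36. The Rab28 arrays did not overlap and those of Rab15 did, and the intervals of all 3 genes held 0 (Rab28 -0.13 to 0.91, Rab15 -0.17 to 0.99, Rab2a -0.23 to 0.94). The Rab28 difference was 0.39 at this brightest probe set and 0.01 at the other.

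Of the 8 partners of Rab proteins, 6 had higher and 2 lower values at 24 hr. Rabep1, rabaptin-5, an effector of Rab5, had 8.65, 8.42 and 8.74 in BMP24h samples, against 8.35, 8.35 and 8.42 in control samples, and 8.27, 8.19 and 8.43 in BMP6h samples. BMP24h replicate 2 touched the other conditions, and the log2 fold changes were 0.23 against control (interval -0.08 to 0.54) and 0.31 against BMP6h. That second difference met the thresholds of the Methods in 10 of 19 alternative fits. The difference from control met them in 3 of 19, among them the fit without BMP24h replicate 2 (0.33). Rabac1, the prenylated Rab acceptor, had 0.14, Rab11fip5, an effector of Rab11, 0.09, and Rabggta and Rabggtb, the subunits of the enzyme that attaches the lipid anchor to Rabs, 0.01 and -0.16. For Rab3ip, an exchange factor for Rab8, the interval of its 0.28 difference ran from -0.71 to 1.27.

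**Figure D3:**
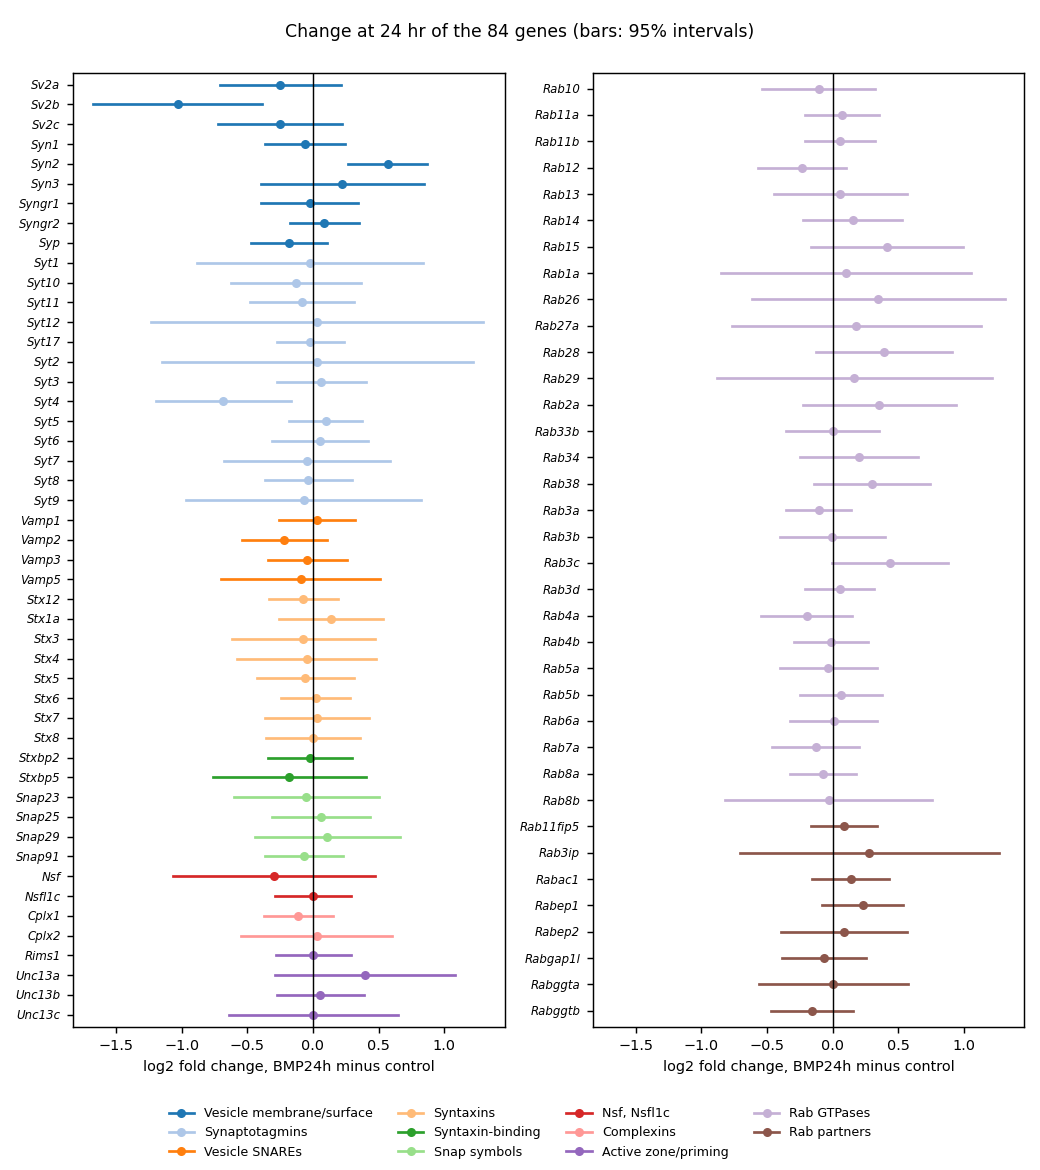
Log2 fold change of BMP24h against control (x axis) for each of the 84 genes (y axis, grouped by role), as points with 95% intervals from limma. The intervals of Syn2 (0.27 to 0.87), Sv2b (-1.68 to -0.39) and Syt4 (-1.19 to -0.17) leave out 0.

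At 6 hr, the largest positive difference was that of Rab27a, a Rab of secretory granules, which had 6.15, 7.54 and 5.89 in BMP6h samples, against 6.00, 5.55 and 5.54 in control samples. BMP6h replicate 2 was the highest, at more than 1 log2 unit above both companion arrays, and the log2 fold change of 0.83 had an interval from -0.12 to 1.77. The same array was over 1 log2 unit from the mean of its companion arrays for 8 of the 84 genes: Rab26, Rab27a, Rab29, Rab3ip, Rab8b, Syt12, Syt2 and Unc13c, all at higher values. Without BMP6h replicate 3, which leaves replicate 2 a larger part, 6 genes met the thresholds of the Methods at 6 hr (Cplx2, Rab27a, Stxbp5 and Syt2 higher, Sv2a and Sv2b lower), in place of 0, a share of 7.14% against 6.95% of all genes in that fit. BMP6h replicate 2 read 7.11 for Syt12, against 5.28 and 4.79 on BMP6h replicates 1 and 3, and 6.14 for Syt2, against 4.53 and 3.85. Control replicate 3 was that far from its condition for Rab26, Rab29 and Syt9, each at a lower value. For Rab26 both arrays enter the 6 hr difference of 0.64 (interval -0.32 to 1.60), with 6.61, 7.73 and 6.61 in BMP6h samples, against 6.69, 6.79 and 5.53 in control samples.

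**Figure D4:**
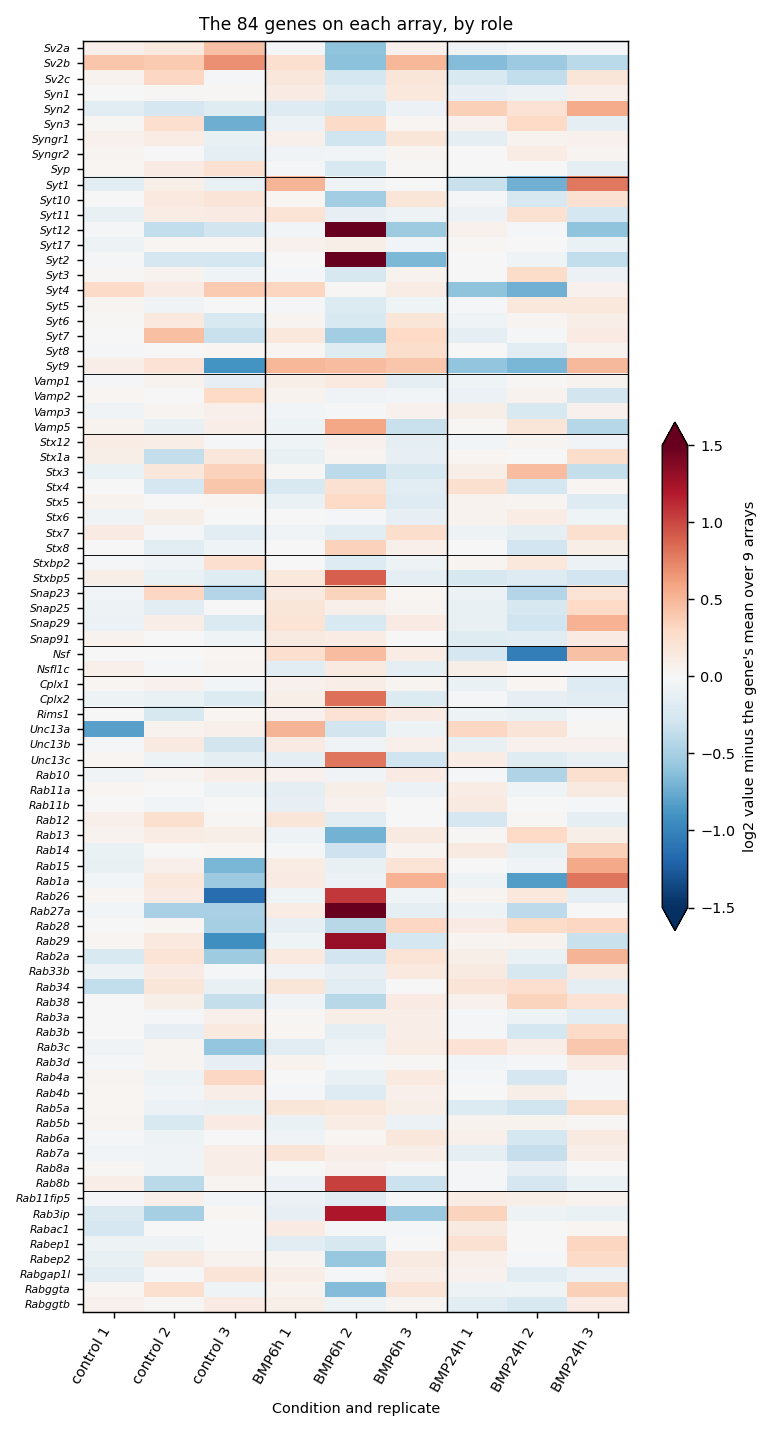
Log2 value minus the mean of the gene over the 9 arrays (color) for the 84 genes (rows, grouped by role) on each array (columns). BMP6h replicate 2 holds the strongest colors, as in Syt12 (7.11) and Rab27a (7.54), and Sv2b and Syn2 change color between the control and the BMP24h columns.

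Several probe sets measured 27 of the genes and 1 probe set the other 57. In 5 genes probe sets disagreed in sign by at least 0.1 in both directions in some comparison. At 24 hr against control these were Rab10 (-0.11 and 0.11) and Rab38, a Rab of melanosomes (0.30 at the brightest and -0.24 at the other). At 6 hr it was Rab3c (0.15 and -0.15), and for BMP24h against BMP6h Rab5a (-0.23 and 0.12) and Snap23 (-0.28 and 0.34). Syn2, Sv2b and Syt4 had the same sign at every probe set in every comparison, as did other genes such as Nsf, Rab34, Stx8 and Vamp1. Syn2 was the 1 gene whose probe sets disagreed on a threshold, for BMP24h against BMP6h.

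Besides the members, 56 of 82 other genes of vesicle traffic and release were measured, such as clathrin, dynamin, exocyst and transmitter transporter genes. Of these, 21 had higher and 35 lower values at 24 hr (median -0.03 on the log2 scale), and none passed the adjusted test at either time. Madd, an exchange factor for Rab3, was the 1 gene of the 56 past the thresholds of the Methods at 24 hr, at 0.28 (standard error 0.11). None was lower by them, where 1.77% of all genes were higher and 2.05% lower. Among those below a threshold, Slc18a2, the vesicular transporter that loads noradrenaline, had -0.25 (standard error 0.16), and Napa, the adaptor of Nsf on SNARE complexes, had -0.01 (standard error 0.10).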

How the data were processed

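The study used 9 Affymetrix Rat Genome arrays of cultured rat sympathetic neurons, 3 a condition, run in 2 batches. The authors deposited log2 expression values, computed by RMA in Partek Genomics Suite and then passed through its batch removal function. Which version of RMA was used is not given in the sources used here. For every probe set the 2 batch means lay within 6.67e-05 of each other. Arrays have no sequencing depth, so precision is limited by the number of arrays. Of 8799 probe sets, 59 controls were left out. Among the 8740 tested, 7006 name 1 gene, 308 several and 1426 none here.

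A linear model with terms for condition and batch was fitted over all arrays with limma 3.58.1 (R 4.3.3), leaving 5 residual degrees of freedom. The Benjamini-Hochberg adjustment covered the 8740 probe sets, and an adjusted p under 0.05 was called. A second, looser call took the study's own cutoffs from its Methods: p under 0.05 unadjusted, with at least a 1.2-fold difference. Promoters came from RefSeq on GRCr8.

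The genes named are those past a threshold, the 6 highest and 6 lowest fold changes of each comparison, the 10 highest and 5 lowest means, those whose probe sets disagree and the founding genes of each role. Others were named as examples after their values were seen. The members, roles and lists were chosen with earlier results of these data known.

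Other settings tried were an unmoderated two-way analysis, a model without batch, replicate numbers as blocks, batch 1 or batch 2 by itself, weights for arrays, dropping dim probe sets, a second quantile normalization, centring on medians, averaging the probe sets of a gene and omission of each array in turn. Weights estimated gene by gene were added after seeing the data.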

Additional observations from a re-analysis of the deposited data

How the results depend on the processing

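Syn2 and Sv2b met the thresholds of the Methods at 24 hr against control in all 19 alternative fits that give a test, with log2 fold changes from 0.47 to 0.66 for Syn2 and from -1.12 to -0.93 for Sv2b, and Syt4 met them in 15 of 19. None of the values of these 3 genes at 24 hr against control changed sign. In batch 1, with 1 array a condition and no test, they differed from control at 24 hr by 0.51, -1.07 and -0.88, and in batch 2 alone by 0.60, -1.01 and -0.58. The adjusted test depended on how arrays were weighted. With array weights estimated gene by gene (0.0930 for BMP6h replicate 2 to 5.764 for BMP24h replicate 1), chosen after seeing the data, Syn2 (adjusted p = 0.00399), Sv2b (adjusted p = 0.000704) and Syt4 (adjusted p = 0.0172) passed at 24 hr against control. The same 3 (3.57% of the 84 genes) passed for BMP24h against BMP6h and in the F-test. In that fit the counts of members at the thresholds of the Methods were 12 at 24 hr (14.3%), 1 at 6 hr (1.19%) and 14 between the times (16.7%). Of all 4736 genes, that fit called 172 (3.63%) at 24 hr, 113 (2.39%) between the times and 153 (3.23%) in the F-test by the adjusted test, and 447 (9.44%), 167 (3.53%) and 381 (8.04%) by the thresholds of the Methods at 24 hr, at 6 hr and between the times. Over all alternatives the adjusted p ran from 0.000152 to 1.00 for Syn2, from 1.23e-05 to 1.00 for Sv2b and from 0.000306 to 1.00 for Syt4. The default estimate of array weights stopped before convergence, with weights from 0.0656 to 34.16. It called 21 of the 84 genes at 24 hr (25%), 1 at 6 hr (1.19%) and 37 between the times (44%) by the adjusted test, and 40 by the F-test (47.6%). Of all genes it called 16.6%, 2.11% and 32.3% by the adjusted test and 32.1% by the F-test. By the thresholds of the Methods it called 14, 7 and 20 of the 84 genes (16.7%, 8.33% and 23.8%), against 10.9%, 4.98% and 12.1% of all genes.

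By the thresholds of the Methods, BMP24h against BMP6h gave 4 genes with no batch term (4.76%, against 4.48% of all genes) and 1 in batch 2 alone (1.19%, against 0.971%). Leaving out 1 array gave 2 to 5 genes at 24 hr (5 without BMP24h replicate 3, where 3.61% of all genes met them), 0 to 6 at 6 hr (6 without BMP6h replicate 3, where 6.95% of all genes met them) and 1 to 8 between the times (8 without BMP6h replicate 3, where 8.55% of all genes met them, and 7 without BMP24h replicate 3, where 4.08% of all genes met them). By the adjusted test it gave 0 to 1 at 24 hr and 0 to 1 in the F-test, the 1 being Sv2b without BMP6h replicate 2 (adjusted p = 0.0216 at 24 hr). Each dissection gave a sample of every condition, but the numbers 1 to 3 of the replicates are not stated to mark a shared dissection. The main fit has no term for dissection. Deviations of same-numbered arrays correlated between -0.74 and 0.53. Batch removal made the deviations of the replicate 1 arrays sum to about 0, so their negative correlations (-0.74 to -0.215) cannot speak to pairing. In batch 2 the differences of replicate 2 from replicate 3 correlated at 0.0169, 0.0482 and 0.4 between conditions. By the thresholds of the Methods, the replicate block gave 1 gene at 6 hr (Sv2a, where 4.58% of all genes met them) and 5 between the times (Rabep1, Stxbp5, Sv2b, Syn2 and Syt4, where 4.2% of all genes met them). At 24 hr it gave 3 genes, as did the main fit, where 5.26% of all genes met them with the block and 3.82% in the main fit. The cause of these shifts was not tested. Of the other counts, 53 from these settings and 54 from leaving out an array equalled the main ones or were within 1.5 times of them. Most of these were 0 in both fits, where a ratio has no meaning.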
